A study of Mus musculus with 5 samples.

Results

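The amino acid arm driven by ATF4 and the unfolded protein response of the endoplasmic reticulum (ER), 2 linked stress programmes represented by 45 genes, were followed in mouse tumour cell lines that carry a doxycycline-inducible EWS/ATF1 gene. The genes came from a fixed list of 31 amino acid arm genes and 14 ER chaperone arm genes. That list was set with earlier results of these data known. An array probe was found for 44 of the 45, out of 20018 named genes on the array. These 44 comprised 30 genes of the amino acid arm and 14 of the ER arm, and every one was above background on all 5 arrays. The proline enzyme gene Pycr1 had no matched probe, so it has no level here and enters only the promoter search.

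The lines were grown from soft tissue sarcomas that arose in mice induced to express EWS/ATF1, the fusion oncoprotein of clear cell sarcoma, and the strain was a mix of C57/BL6, 129 and ICR. All 5 cultures therefore shared the inducible fusion alleles and a history as EWS/ATF1 tumours. Total RNA was taken at 3 h from a control, a low-dose doxycycline and a high-dose doxycycline culture, and at 48 h from a high-dose and a control culture. Each of these 5 groups is 1 array. The labels give no doxycycline concentration, do not say whether control cultures received any and name no tumour line for any array, so that dose cannot be told apart from line or culture.

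ATF4 is a transcription factor whose translation increases when the initiation factor eIF2 is phosphorylated by kinases that sense missing amino acids, ER stress and other insults. It switches on genes for making, importing and charging amino acids, among them the pathway from 3-phosphoglycerate to serine and the folate enzymes that pass serine's carbon on to nucleotide synthesis. The unfolded protein response runs through 3 ER sensors. PERK feeds into ATF4, whereas ATF6 and the IRE1 target XBP1 switch on the chaperones, disulfide isomerases and degradation factors of the ER. The ATF1 portion of the fusion keeps its DNA-binding domain, which recognises the cyclic AMP response element (CRE). Much of the control of ATF4, ATF6 and XBP1 acts on translation, cleavage or splicing, which these probes do not read.

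DNA motifs were read from RefSeq promoter sequence of assembly GRCm38.p6. The windows covered 250 bases before to 50 after each start site, for the 38 members that have an entry. The core of the ATF4 element (CARE) was searched as TGATGNAA, the ER stress element (ERSE) of ATF6 as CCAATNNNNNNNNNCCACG, the XBP1 element (UPRE) as TGACGTGG and the full CRE as TGACGTCA, each on both strands. The UPRE and CRE patterns begin with the same 6 letters but no sequence matches both at once. The CARE core was present in 7 of 25 amino acid arm promoters (Aars, Asns, Chac1, Gars, Pycr1, Slc1a4 and Trib3) and in 1 of 13 ER arm promoters (Herpud1), against 4.51% of all genes with a promoter entry. The ERSE was present in 0 of 25 amino acid arm promoters and in 6 of 13 ER arm promoters (Calr, Canx, Dnajc3, Hsp90b1, Hspa5 and Pdia6), against 0.137% of all genes. Neither the UPRE nor the CRE pattern was in any of the 38 windows, against 0.714% and 2.03% of all genes. A match is a run of letters and not a shown binding site.

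These 5 stretches are shown because they hold the motif in genes with some of the larger 48 h differences of each arm, and because Herpud1 is the ER arm gene that carries the amino acid arm's motif. Capitals mark the CARE core or the 2 fixed ends of the ERSE, and a match on the opposite strand reads as its reverse complement. They lie at chr2:119351009-119351096 on the plus strand (Chac1), chr6:55037931-55038000 on the plus strand (Gars), chr8:94386277-94386364 on the plus strand (Herpud1), chr8:84847035-84847133 on the minus strand (Calr) and chr2:34771985-34772083 on the plus strand (Hspa5), all upstream of the start site.
Chac1: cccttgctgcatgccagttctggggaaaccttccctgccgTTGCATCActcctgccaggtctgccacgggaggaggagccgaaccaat
Gars: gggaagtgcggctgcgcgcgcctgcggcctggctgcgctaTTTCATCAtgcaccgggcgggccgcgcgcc
Herpud1: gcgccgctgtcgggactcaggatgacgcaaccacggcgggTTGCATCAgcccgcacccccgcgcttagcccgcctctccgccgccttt
Calr: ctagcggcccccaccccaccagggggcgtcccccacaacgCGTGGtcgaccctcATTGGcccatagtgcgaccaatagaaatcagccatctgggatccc
Hspa5: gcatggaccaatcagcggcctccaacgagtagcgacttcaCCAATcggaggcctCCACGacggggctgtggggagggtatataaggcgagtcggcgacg

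**Figure D1:**
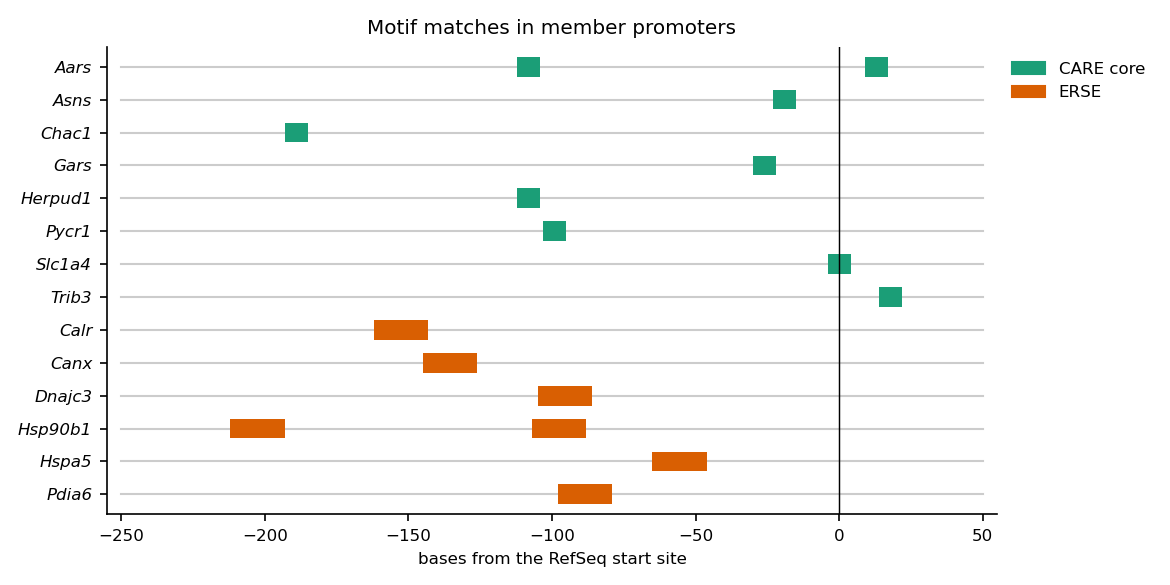
Matches to the 2 motifs in the promoters of the members that hold one, with the distance in bases from the start site on the horizontal axis and a gene on each row. The CARE core lies in 7 amino acid arm genes and in Herpud1, and the ERSE in 6 genes that are all of the ER arm.

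Levels are given as log2 of the processed spot signal minus the array's 75th percentile, so 0 is the 75th percentile probe of that array and a step of 1 is a 2-fold change. With 1 array per group there were no replicates, and no pair of arrays was tested. The call for a gene required a log2 difference of at least 1 in size and signal above background on both arrays. The scanner's own error for a log2 difference was 0.204, the median over the measured members in high dose over control at 3 h and 48 h. This value was used for every gene on the array, although dim genes can have a larger error, as Cth did at 48 h (0.228). It holds nothing of the variation between cultures. Probes above background numbered 30884 to 33427 of 55681 per array, no spot was saturated, and all arrays shared 1 slide and 1 scan. Of the 7 tumour and neural crest markers, 6 were above background on every array, but their levels were not all alike. Ngfr, a neural crest receptor, was at -2.20 in high-dose and 4.25 in control cells at 48 h. The rest of the list did not follow Ngfr as a whole. Of the 6 measured markers, Ngfr included, 3 were above 0 in high dose over control at 48 h, with a median of 0.06. Mitf (0.33), Sox9 (0.69) and S100b (0.72) were higher, and Sox10 (-0.21) and Pmel (-0.62) were lower. The macrophage protease gene Ctss was at -4.79 in the 3 h high-dose and -4.67 in the 48 h control culture, against -0.78 in the 3 h control, so the control cultures differed from each other too. Ngfr and Ctss were chosen after their values were seen, and their part in the results was not tested. Of the fusion partners, Ewsr1 differed by 0.48 and Atf1 by -0.33 in high dose over control at 48 h, and the files do not say whether these probes read the fusion transcript.

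Most calls at 48 h lay in the amino acid arm. In high-dose over control cells the amino acid arm had 7 genes called higher and 2 called lower of 30, with a median difference of 0.57. The ER chaperone arm had 2 called higher and 0 lower of 14, with a median of 0.19 that turned to -0.065 under quantile normalization. Over all 13739 genes above background on both arrays, 9.91% were called higher and 10.1% lower, with a median of 0.05. The genes called higher were Psat1, Mthfd2, Chac1, Shmt1, Slc7a1, Gars and Shmt2 in the amino acid arm and Calr and Pdia3 in the ER arm, and those called lower were Cth and Ddit3. RNA from whole cultures cannot tell less transcript per cell from fewer cells of a kind that make it.

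**Figure D2:**
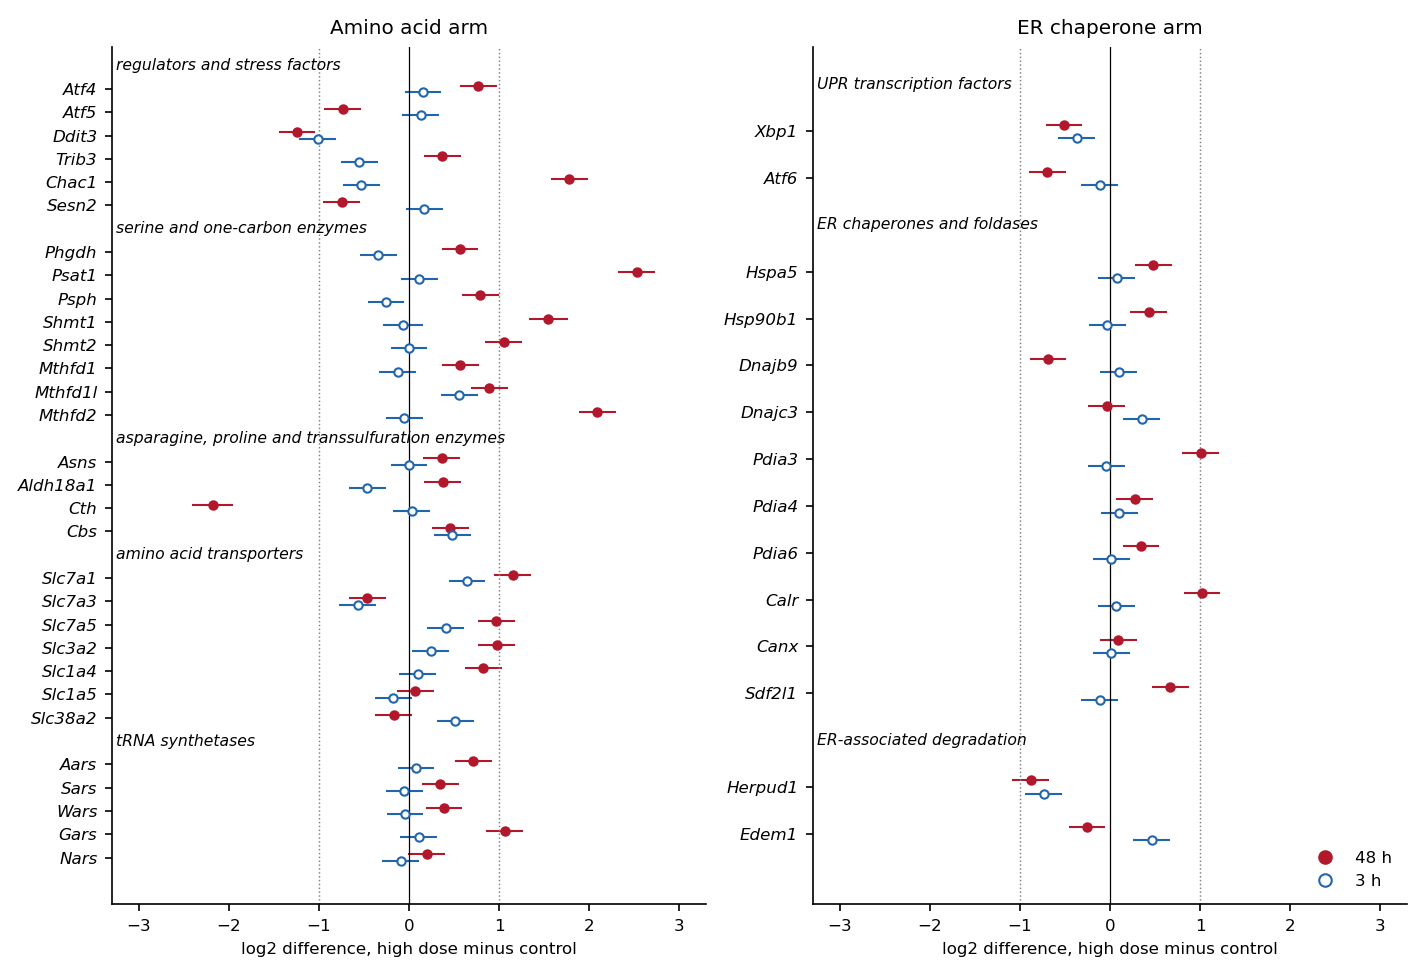
The log2 difference of high dose over control at 48 h and at 3 h for each of the 44 measured genes, in 2 panels for the 2 arms and grouped by role, with dotted 2-fold lines and bars for the scanner error of each difference. At 48 h Psat1 and Mthfd2 lie farthest to the right and Cth farthest to the left, while ER arm genes lie between -0.88 and 1.02.

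All 8 serine and one-carbon enzymes were higher in high-dose cells at 48 h by more than the scanner error, 4 of them past 2-fold, and the class median was 0.97. Over all 13739 genes, 5603 were higher by more than the scanner error. Psat1, the aminotransferase of the serine pathway, stood at 3.14 in high-dose cells, against 0.61 in control cells at 48 h. Its 3 h levels were 0.61 in control, 0.73 in low-dose and 0.73 in high-dose cells, so the 48 h high-dose array was the one that stood apart. The 48 h difference was 2.53, or 5.77-fold, and a second Psat1 probe gave 2.11.

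Mthfd2, the mitochondrial folate dehydrogenase of proliferating cells, stood at 3.098 in high-dose cells and 1.01 in control cells at 48 h, a 4.26-fold difference. Its 3 h levels were 0.81 in control, 0.71 in low-dose and 0.76 in high-dose cells. Only the 48 h high-dose array lay outside a narrow band for this gene.

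The 2 serine hydroxymethyltransferases, which hand serine's carbon to folate, both passed 2-fold. Cytosolic Shmt1 was at -1.48 in high-dose and -3.02 in control cells at 48 h, a difference of 1.55, and its second probe gave 3.04. Its 3 h levels were -2.98 in control, -2.73 in low-dose and -3.05 in high-dose cells. Mitochondrial Shmt2 was at 1.96 in high-dose and 0.91 in control cells at 48 h, a difference of 1.05, after 3 h levels of 1.15, 1.08 and 1.15 in control, low-dose and high-dose cells. Both probes of Shmt1 and the single probe of Shmt2 placed the 48 h high-dose array above all others.

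The remaining 4 members of the class were higher by less than 2-fold. Mthfd1l, the mitochondrial formate-producing enzyme, differed by 0.89, Psph, the phosphatase that ends the serine pathway, by 0.79, and cytosolic Mthfd1 by 0.57. Phgdh, the dehydrogenase that opens the serine pathway, differed by 0.57 in high-dose over control cells at 48 h. Its level was 0.85 in high-dose and 0.29 in control cells at 48 h and 0.77 in the 3 h control, so the high-dose array did not stand clear of both controls beyond the scanner error.

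**Figure D3:**
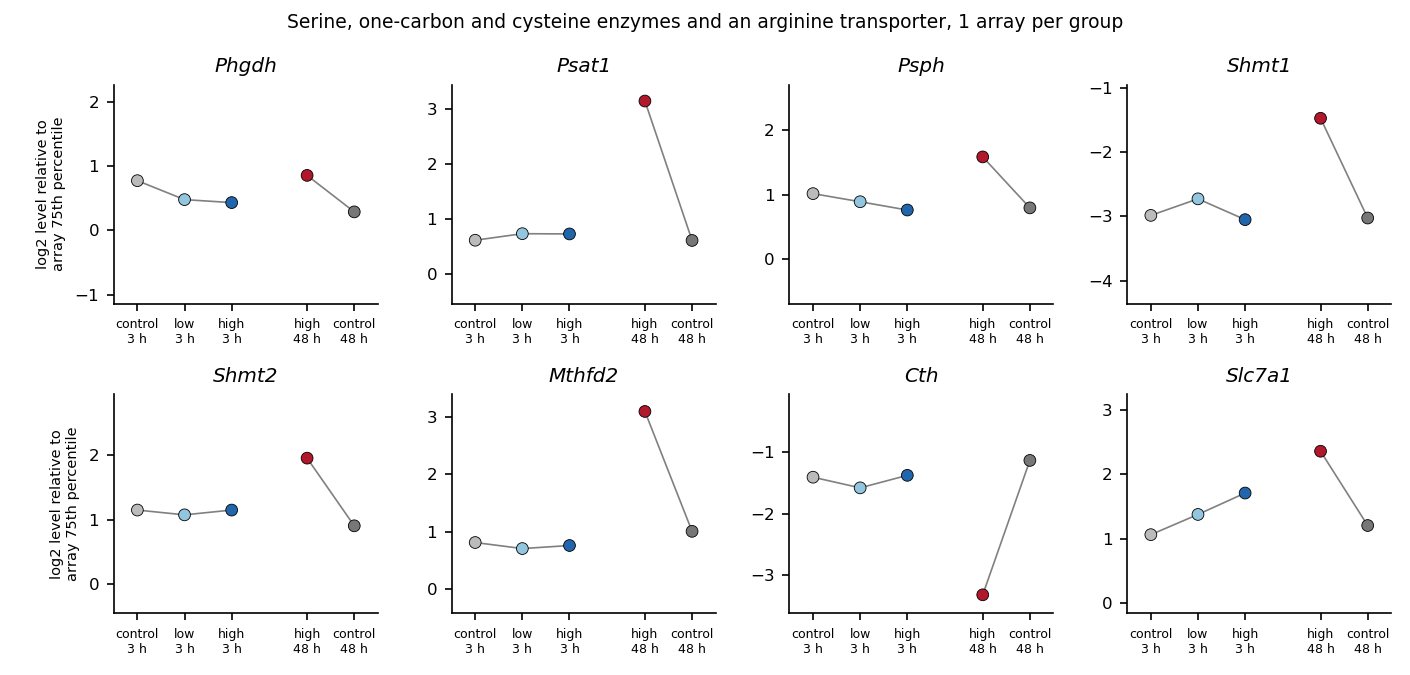
Levels on each array (log2 over the array's 75th percentile) for enzymes and transporters of the amino acid arm, with the 3 h control, low and high dose and then the 48 h high dose and control. Psat1 and Mthfd2 are level over 4 arrays and high on the 48 h high-dose array, and Cth is low on that array alone.

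Asparagine, proline and transsulfuration enzymes did not share this pattern. Cth, cystathionine gamma-lyase, which makes cysteine from cystathionine, was at -3.32 in high-dose and -1.14 in control cells at 48 h. The 3 h arrays gave -1.41 in control, -1.58 in low-dose and -1.38 in high-dose cells. It was lower by 2.18 on the log2 scale at 48 h, a 4.53-fold difference, while a second probe gave -2.47 and normexp background correction gave -1.22. Cbs, the enzyme that makes cystathionine, went the other way and differed by 0.46 without a call. Asns, the asparagine synthetase and a classic ATF4 target, differed by 0.36, and Aldh18a1, which opens proline synthesis, by 0.37.

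Among the transporters, Slc7a1, the cationic amino acid carrier, was called higher. It was at 2.36 in high-dose and 1.20 in control cells at 48 h, a 2.22-fold difference. The 3 h levels followed the dose, with 1.06 in control, 1.38 in low-dose and 1.71 in high-dose cells. Slc7a5 and Slc3a2, the 2 chains of the large neutral amino acid exchanger, both differed by 0.97 at 48 h, though a second Slc7a5 probe gave 0.31. The serine and alanine carrier Slc1a4 differed by 0.83. Glutamine carriers were nearly level, with 0.07 for Slc1a5 and -0.17 for Slc38a2, and Slc7a3 differed by -0.47. The transporter class median was 0.83.

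The 5 aminoacyl-tRNA synthetases, which load amino acids onto tRNA, were all above 0 with a median of 0.39, or 0.11 under quantile normalization. Of all genes, 53.3% were above 0 at 48 h. Gars, for glycine, was called higher, at 7.66 in high-dose and 6.60 in control cells at 48 h, a 2.09-fold difference. The call ended under quantile normalization, with a difference of 0.52, and under normexp, with 0.98. Its 3 h levels were 6.77, 7.06 and 6.88 in control, low-dose and high-dose cells. Aars, for alanine, differed by 0.72, Wars by 0.39, Sars by 0.35 and Nars by 0.20.

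The regulators of the amino acid arm split in direction at 48 h, with a median of -0.18. Atf4 mRNA was at 7.38 in high-dose and 6.61 in control cells, a difference of 0.77, and a second probe gave 0.95. Its levels at 3 h were 6.35, 6.59 and 6.51 in control, low-dose and high-dose cells. Chac1, a glutathione-degrading enzyme induced by ATF4, was called higher, at 1.37 in high-dose and -0.41 in control cells at 48 h, a 3.43-fold difference. At 3 h it was -0.53 in control, -0.88 in low-dose and -1.06 in high-dose cells, so high dose was below control at 3 h and above it at 48 h.

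Ddit3, the stress factor CHOP that acts downstream of ATF4, was called lower at both times. It was at 0.42 in high-dose and 1.66 in control cells at 48 h, a difference of -1.24. At 3 h it was 2.12 in control, 1.74 in low-dose and 1.11 in high-dose cells, a difference of -1.01 for high dose over control. The 2 high-dose arrays were thus the lowest of the 5. Against the 48 h control array in place of the 3 h one, the 3 h difference was -0.55.

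Trib3, a pseudokinase that feeds back on ATF4, differed by 0.37 at 48 h, with 2.95 in high-dose and 2.58 in control cells. At 3 h it was 1.37 in control, 1.13 in low-dose and 0.82 in high-dose cells. Both 48 h arrays lay above all 3 h arrays, and the 48 h control exceeded the 3 h control by 1.21, so Trib3 separated the times more than the doses. Atf5, a translationally controlled relative of Atf4, was at 6.06 in high-dose and 6.79 in control cells at 48 h, and 6.25, 6.33 and 6.38 over the 3 h doses. Sesn2, a leucine-sensing inhibitor of mTORC1, was at 1.38 in high-dose and 2.13 in control cells at 48 h, and 2.11, 2.38 and 2.28 over the 3 h doses. Neither reached 2-fold, and the 48 h high-dose array was the lowest for each.

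**Figure D4:**
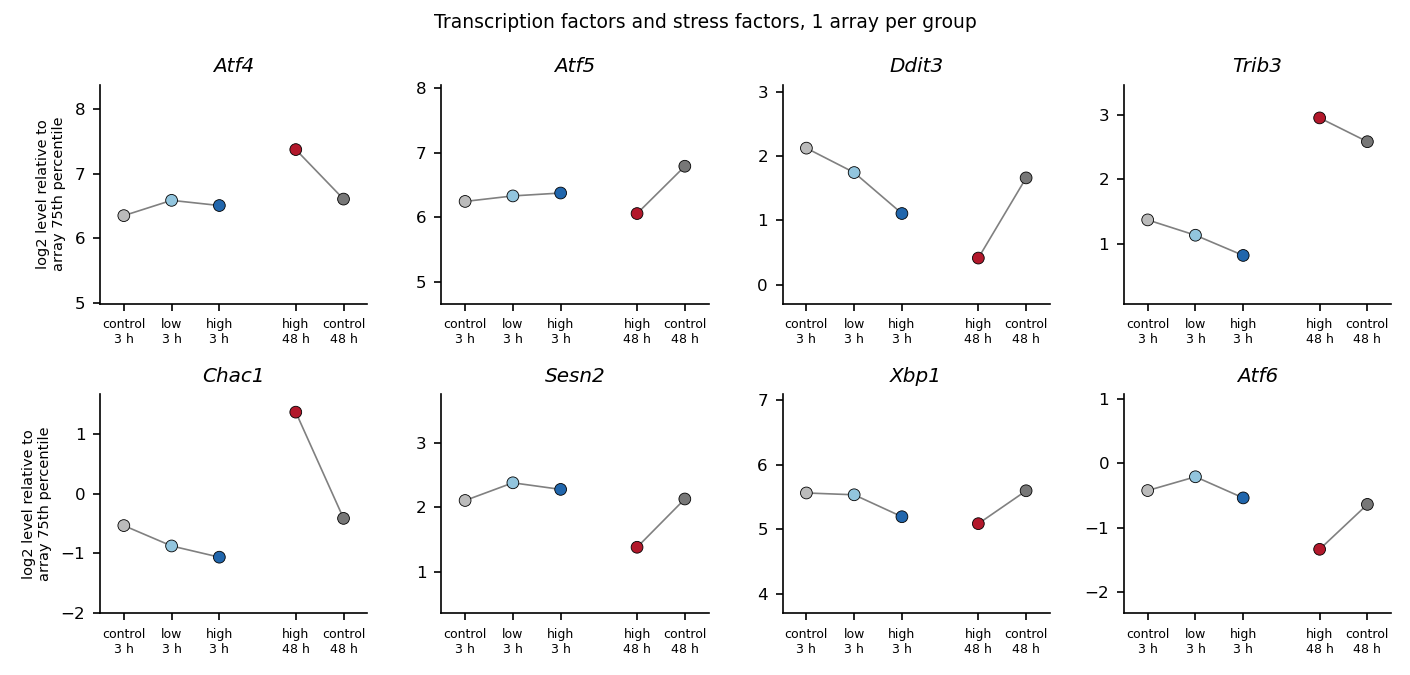
Levels on each array (log2 over the array's 75th percentile) for the 6 regulators of the amino acid arm and for Xbp1 and Atf6, with the 3 h control, low and high dose and then the 48 h high dose and control. Ddit3 is lowest on the 2 high-dose arrays, Chac1 is highest on the 48 h high-dose array, and Trib3 is higher on both 48 h arrays.

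In the ER arm both transcription factors were lower at 48 h, while 8 of 10 chaperones and folding enzymes were above 0, or 5 of 10 under quantile normalization. The share of all genes above 0 was 53.3%. Xbp1 mRNA was at 5.08 in high-dose and 5.59 in control cells at 48 h, a difference of -0.51, and at 5.56, 5.53 and 5.19 in control, low-dose and high-dose cells at 3 h. Atf6 was at -1.34 in high-dose and -0.64 in control cells at 48 h, a difference of -0.70, and at -0.43, -0.21 and -0.54 over the 3 h doses. Neither was called. For Xbp1 the 2 high-dose arrays were the lowest, and for Atf6 the 48 h high-dose array alone was low.

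Of the chaperones and folding enzymes, 2 were called, both just past the 2-fold line. Calr, the calcium-binding lectin chaperone, was at 5.96 in high-dose and 4.94 in control cells at 48 h, and at 5.29, 5.26 and 5.36 over the 3 h doses. Pdia3, the disulfide isomerase that works with Calr, was at 4.84 in high-dose and 3.83 in control cells at 48 h, and at 4.14, 4.26 and 4.10 over the 3 h doses. Both calls rested on the 48 h control array, which was the lowest of the 5 for each. Set against the 3 h control instead, 0 of the 14 ER arm genes were called and the arm's median was 0.01, whereas the amino acid arm had 10 called higher and 2 lower with a median of 0.64, against 9.41% and 8.88% of all genes.

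The other chaperones stayed within 2-fold at 48 h, and the class median was 0.39, or 0.04 under quantile normalization. Sdf2l1, a partner of ER Hsp40 proteins, differed by 0.67, the master chaperone Hspa5 (BiP) by 0.48 and its relative Hsp90b1 by 0.43. The isomerases Pdia6 and Pdia4 differed by 0.35 and 0.28, and the lectin Canx by 0.09. The co-chaperone Dnajc3 differed by -0.04 and Dnajb9, an XBP1 target, by -0.69, though a second Dnajb9 probe gave -0.11.

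The 2 degradation factors were lower without a call. Herpud1, which organises ER-associated degradation, was at 2.45 in high-dose and 3.33 in control cells at 48 h, and at 3.37, 3.08 and 2.63 in control, low-dose and high-dose cells at 3 h. Its differences of -0.88 at 48 h and -0.74 at 3 h placed both high-dose arrays at the bottom, as for Ddit3. Edem1, which hands misfolded glycoproteins to degradation, differed by -0.25 at 48 h and by 0.47 at 3 h.

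**Figure D5:**
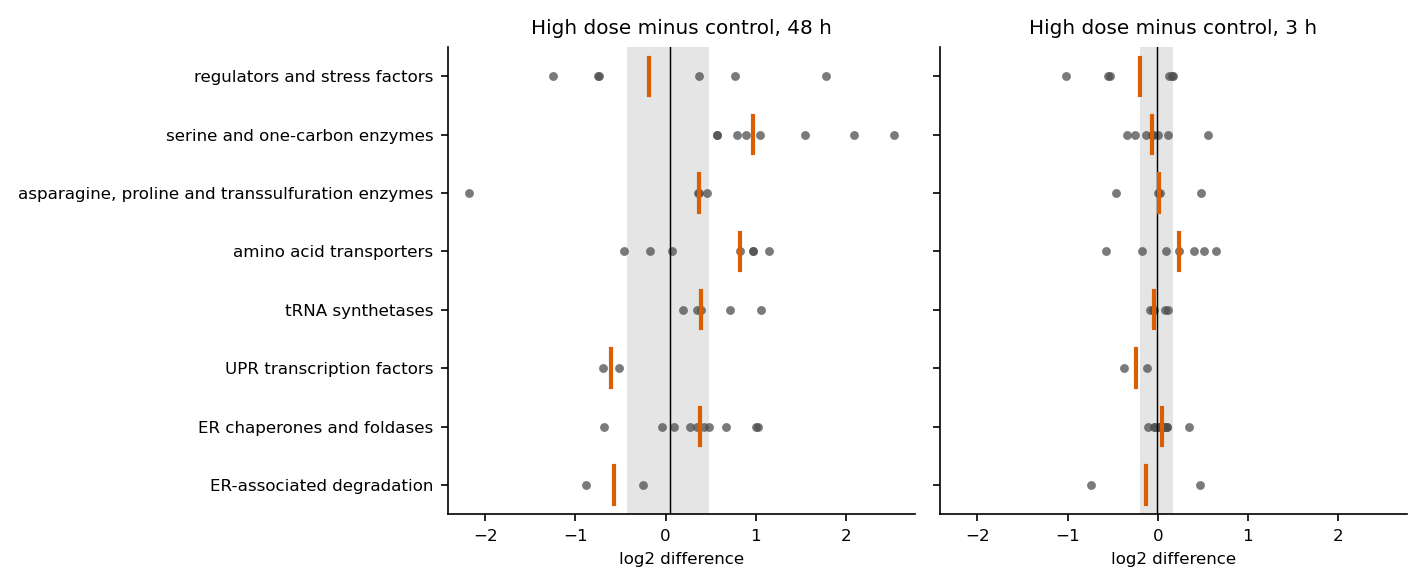
Log2 differences of the members grouped by role, for high dose over control at 48 h and at 3 h, with a point per gene, an orange line at the class median, a black line at the median of all genes and a grey band over the middle quartiles of all genes. At 48 h the serine and one-carbon class (median 0.97) and the transporters (median 0.83) lie highest, above the grey band.

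The motif-bearing genes shown above were set beside these values. In the amino acid arm the 6 measured genes with a CARE core had a median 48 h difference of 0.77, against 0.67 for the 18 measured genes whose window lacked it, a set that included Psat1 and Mthfd2. In the ER arm the 6 genes with an ERSE ranged from -0.04 to 1.02 with a median of 0.39, and the 7 without one ranged from -0.88 to 1.01 with a median of -0.25. All 6 with an ERSE were chaperones or folding enzymes. Those without one held the degradation factors Herpud1 (-0.88) and Edem1 (-0.25) beside the folding genes Pdia3 (1.01), Sdf2l1 (0.67) and Pdia4 (0.28). The split by motif was thus in part a split by class, and it was not computed under other scalings.

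Few members reached 2-fold at 3 h. Of the amino acid arm, 0 were called higher and 1 lower (Ddit3) in high-dose over control cells, against 1.86% higher and 1.44% lower of 14004 genes, and its median was 0.00. The ER arm had 0 calls and a median of 0.02. Median scaling turned these medians to -0.12 and -0.11. Beyond the scanner error, 6 amino acid arm genes were higher and 7 lower, and 2 ER arm genes were higher and 2 lower. The same rule gave 3070 higher and 3301 lower of the 14004 genes. Low dose over control gave 0 calls in either arm, against 0.761% higher and 0.583% lower of all genes, and high over low dose also gave 0, against 1.28% and 0.885%. Steps past the scanner error at both doses ran upward for 3 members, namely Slc7a1, Mthfd1l and Cbs, and downward for 3, namely Ddit3, Herpud1 and Trib3. Over all 13972 genes above background on the 3 arrays, 2.91% stepped upward and 2.92% downward in this way.

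The 2 control arrays give 1 comparison between cultures without the high dose, in which time and culture cannot be told apart. In 48 h over 3 h control cells 1 amino acid arm gene was called higher (Trib3) and 0 lower, with 0 calls in the ER arm, against 2.5% higher and 1.36% lower of all genes. The ER arm's median was -0.20 and the amino acid arm's was 0.08, or -0.06 under median scaling. In 48 h over 3 h high-dose cells the amino acid arm had 5 called higher and 1 lower with a median of 0.66, and the ER arm had 0 with a median of -0.11, against 9.13% and 8.43% of all genes. Chac1 differed by 2.43 and Trib3 by 2.13 in that comparison. These comparisons reuse the same arrays as those between doses.

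Genes called at 48 h against both control arrays numbered 5 higher, namely Chac1, Psat1, Shmt1, Mthfd2 and Slc7a1, and 2 lower, namely Ddit3 and Cth, against 7.39% higher and 7.09% lower of 13503 genes. The same 7 were called at 48 h under each of 7 processing settings. Gars, Shmt2, Calr and Pdia3, which lay close to 2-fold, were called under 4 of the 7. Not all 7 settings could change a call. Every measured member was above background on all arrays, so dropping the dim-probe filter left their differences as they were. The deposited value table holds nearly the same signals, and averaging probes cannot move genes with 1 probe, such as Gars, Shmt2, Calr and Pdia3.

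A model of dose across both times, fitted to the 4 control and high-dose arrays with limma, called 0 of 14599 genes at an adjusted p under 0.05 (0%). It had 1 residual degree of freedom and counts an effect present at 1 time only as error. The absence of calls therefore does not speak to genes that differed at 48 h alone. An unadjusted p under 0.05 was found for 498 genes. Among these were 4 members, with dose effects of -1.13 for Ddit3, -0.81 for Herpud1, 0.90 for Slc7a1 and 0.73 for Mthfd1l, all at an adjusted p of 0.884 by limma with Benjamini-Hochberg adjustment. Under 8 other settings between 1 and 5 members and between 471 and 1402 genes had an unadjusted p under 0.05.

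Other genes of the same pathways were read from lists of further ATF4 targets, eIF2 kinases and stress sensors, synthetases, folate enzymes and unfolded protein response genes, and none of these had a call between doses at 3 h. Of 17 further ATF4 targets 1 was called higher and 4 lower at 48 h in high-dose over control cells, with a median of -0.11, against 9.91% higher and 10.1% lower of all genes. Stc2, a secreted stress glycoprotein, differed by -3.03, Nupr1, a stress-induced chromatin protein, by -1.83, and the glycine transporter Slc6a9 by -1.70. Between the controls, 48 h over 3 h, Stc2 differed by 1.498, Slc6a9 by 1.89 and the transcription factor Cebpb by 1.03.

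The further synthetases, 15 in all, were every one above 0 at 48 h (14 under quantile normalization), against 53.3% of all genes. Their median was 0.53, and Hars, for histidine, was called at 1.25. Of 16 further folate and one-carbon genes 3 were called higher and 0 lower, against the same all-gene shares of 9.91% and 10.1%, with a median of 0.28. Those called included methionine synthase Mtr (1.32) and its reductase Mtrr (1.18). None of the 10 kinase and sensor genes was called, and their median was 0.12.

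Of 23 further unfolded protein response genes 1 was called higher and 1 lower at 48 h, against 9.91% and 10.1% of all genes. Their median was 0.31, or 0.11 under quantile normalization. Manf, a secreted ER stress protein, differed by 1.15, and the ER oxidase gene listed as Ero1lb by -1.43.

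Some marker lists moved with the same comparison. The summed linear signal of 8 proliferation markers, relative to the 75th percentile, was 77.1 in high-dose and 1.73 in control cells at 48 h, and 1.60, 1.54 and 1.46 in control, low-dose and high-dose cells at 3 h. All 8 were above background on every array. The sum over 11 macrophage markers was 45.8 in high-dose cells, with 10 above background, and 8.71 in control cells at 48 h, with 6 above background. The 3 h sums were 8.997, 8.35 and 7.30, with 9, 10 and 6 above background. Csf1r, whose probe gave most of each sum, was nearly level at 3 h, with 2.55, 2.52 and 2.65 on the log2 scale in control, low-dose and high-dose cells. The sums therefore do not show dimmer members such as Ctss, which differed by -4.01 in high dose over control at 3 h. Tyrobp, Lyz2, C1qa, C1qc and Ptprc were below background on the 3 h high-dose and 48 h control arrays. Endothelial markers summed to 10.1 in high-dose and 6.36 in control cells at 48 h, with Cdh5 and Emcn below background on every array and Tek below it on the 48 h high-dose array alone. Kdr made up most of that sum, at 3.32 in high-dose and 2.63 in control cells on the log2 scale. Tumour and neural crest markers summed to 157 in high-dose and 116 in control cells at 48 h. S100b gave most of both sums, at 7.15 in high-dose and 6.43 in control cells on the log2 scale. The sums therefore do not show Ngfr, at -2.20 and 4.25, and only 3 of the 6 measured markers were higher in high-dose cells. Epithelial markers summed to 0.108 and 0.105 and skeletal muscle markers to 0.074 and 0.077. Most members of these last 2 lists were below background on both arrays. The part of proliferating and macrophage-marker cells in the 48 h differences of the serine, folate and transport genes was not tested.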

How the data were processed

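In all, 5 one-colour arrays, 1 per group, were analysed. The deposited intensity of each spot was made by the authors with Agilent Feature Extraction 10.7.3.1, per the submitters' processing notes, and per the file headers that software subtracted the background and removed spatial trends on each array. The value table the authors deposited matched these signals within 0.001 on the log2 scale for 99.99% of values, so it is linear and not scaled between arrays. From there, control and outlier spots were left out, the array's 75th percentile was subtracted from log2 signal, spots of a probe were averaged, and the probe brightest over the 5 arrays stood for its gene. The scanner software had to mark 0.5 or more of a probe's spots well above background for it to count. Accessions were matched to RefSeq symbols of GRCm38.p6, for names and promoter sequence only, because the file headers name another build. Of 55681 probes 26413 had 1 symbol, 29268 had none and 0 had several. Of the 44 genes, 13 had more than 1 probe.

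The members and lists were chosen with earlier results of these data known. All members are accounted for. Those called at 2-fold, the regulators and both unfolded protein response factors are given on all 5 arrays, other members by difference, and from each further list at most the 3 largest called differences. Some items are not reported here. Promoters shown came from the 8 members per arm with the largest 48 h difference among those with a motif. The dose model was fitted with limma 3.58.1 in R 4.3.3 on genes above background on at least 2 of 4 arrays, with time as a term, and tested on simulated data. The number of arrays limits the precision. Over the 6 comparisons, the median SD of log2 differences between replicated spots was 0.0885 to 0.0917. Alternatives were normexp, other scalings, mean of probes, no filter, the value table, a 1.5-fold rule and the other control array.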

Additional observations from a re-analysis of the deposited data

Results flagged for a closer look

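For high dose over control, 6 members differed in opposite directions at the 2 times, each beyond the scanner error at both times. That is 13.6% of the 44 members, and 13.6% of 13480 genes met the same rule. The difference between the effects was not tested, since each rests on 4 single arrays, and no explanation was weighed. The effect at 48 h minus the effect at 3 h was 2.31 for Chac1, 1.05 for Psph, 0.92 for Trib3, 0.91 for Phgdh and 0.83 for Aldh18a1, all with high dose above control at 48 h and below it at 3 h. It was -0.72 for Edem1, with high dose below control at 48 h and above it at 3 h. Chac1 at 48 h was the only one of these 12 differences that reached 2-fold.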

How the results depend on the processing

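Of 302 alternative values for the arms and the fit, 280 stayed close to the reported value and 22 moved, and of 145 for single members 125 did so and 20 moved. Some of these values could not move. Dropping the dim-probe filter changes no member's difference, and the deposited value table holds nearly the same signals. Of 90 alternative arm medians 12 changed sign, all from a value within the scanner error of 0. No called member changed sign. At 48 h in high-dose over control cells the 1.5-fold rule gave 14 amino acid arm genes higher, 4 lower and 3 ER arm genes lower. The ER arm genes Calr, Pdia3 and Sdf2l1 passed it upward, at 1.02, 1.01 and 0.67. All-gene shares at 1.5-fold were not computed, so none of the 1.5-fold counts in this section can be read as particular to the members. Quantile normalization put the ER arm's median at -0.065, and the count of ER arm genes higher was 0 under normexp, the 75th percentile over detected probes, quantile normalization and the 3 h control. In high-dose over control cells at 3 h the 1.5-fold rule gave 1 amino acid arm gene higher and 1 ER arm gene lower, normexp gave 0 amino acid arm genes lower (Ddit3 at -0.92), and the 48 h control gave an ER arm median of 0.24. Low dose over the 48 h control gave 1 amino acid arm gene lower and an ER arm median of 0.33, and high over low dose at 1.5-fold gave 1 amino acid arm gene lower. In 48 h over 3 h high-dose cells quantile normalization gave amino acid and ER arm medians of 0.43 and -0.35 and 2 amino acid arm genes lower, and the 1.5-fold rule gave 16 and 2 higher and 4 and 2 lower. Cth at 48 h was -1.22 under normexp. Without the dim-probe filter limma called 4 of 20014 genes, none a member. Over all genes, counts of calls (higher and lower) at 3 h were 261 and 202 for high dose over control, with 135 and 81 under normexp and 824 and 537 without the filter. For low dose over control they were 107 and 82, with 61 and 35 under normexp and 481 and 336 without the filter, and for high over low dose 183 and 127, with 77 and 49 and with 716 and 514. At 48 h the 1362 and 1386 calls became 2201 and 2269 without the filter. Between controls 351 and 191 became 182 and 105 under normexp and 867 and 494 without the filter, and between high-dose cells 1257 and 1161 became 2027 and 1981 without it. Median scaling moved the share of calls that were higher for high dose over control at 3 h from 56.4% to 40.5%, with an all-gene median of -0.14, and in 48 h over 3 h controls from 64.8% to 47.4%. Causes were not tested, beyond the lower threshold of the 1.5-fold rule. Normexp used the median signal, chosen after seeing the data, and the planned fit on the mean signal was not run. No paired analysis was possible because the groups share a single replicate number, beyond the dose model with time as a term, and leaving out an array removes its group. All 44 measured members were above background on every array, so no difference is a bound.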

Other observations

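Second probes were above background on all 5 arrays for 12 of the 13 members that had one. Their difference of high dose over control at 48 h lay within 0.42 of the chosen probe's for all of the 12 but Shmt1 (3.04 against 1.55), Slc7a5 (0.31 against 0.97) and Dnajb9 (-0.11 against -0.69). For Aars the second probe was above background on 1 array.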
